A study of Mus musculus with 6 samples.

Results

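The germline, meiosis and piRNA genes described here are 37 genes chosen by name, whose products act in germ cells: RNA-binding proteins of early germ cells, the chromosome axis and recombination machinery of meiosis, and the proteins that make or use piRNAs. All 37 were found by symbol among the 55401 Ensembl identifiers of the count table. The rule uses no measured value, but the genes and the lists below were chosen with earlier results of these data known. The 6 libraries hold poly(A) RNA of mouse embryonic stem (ES) cells, a culture model of the pluripotent early embryo. The 3 libraries called expressing here are labelled 3XHA-Taf13 expressing cells and had no treatment, and the 3 libraries labelled KO received doxycycline. TAF13 is part of TFIID, which binds core promoters and recruits RNA polymerase II. Cells of both groups were cultured for 7 days, each library came from its own Petri dish, and doxycycline and the KO label cannot be told apart in this design. The sources used here do not give the parental line, its other alleles, the number of clones or the way doxycycline acts.

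Germ cells are set aside early in the mouse embryo, when PRDM1 and PRDM14 turn primordial germ cells away from somatic fates, and they enter meiosis much later in the gonad. In meiosis, cohesin complexes with germline-specific subunits and the HORMAD and SYCP proteins build the chromosome axis, SPO11 cuts the DNA, and DMC1 carries out strand exchange between homologous chromosomes. In parallel, the piRNA pathway uses PIWI proteins, Tudor-domain scaffolds and the helicase MOV10L1 to silence transposons. Most somatic tissues keep such genes shut through promoter DNA methylation and a Polycomb complex (PRC1.6) that contains E2F6, MGA, MAX, L3MBTL2 and PCGF6. ES cells are known to transcribe many of them at low or moderate levels.

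Total counts per library ran from 31219328 to 50328010, and 3 counts correspond to 0.0581 to 0.0961 CPM (counts scaled by library total and TMM factors). Taf13 itself does not check the labels: it had 244, 445 and 447 counts in the expressing libraries, against 422, 634 and 699 in those labelled KO (log2 fold change 0.40, SE 0.147, adjusted p = 0.0578), and reads of the tagged and the chromosomal gene are not separated. Directions below therefore rest on the labels. Expressing replicate 1 stood apart from its group: a chi-square per degree of freedom of 33.9 and 27.5 set it apart from replicates 2 and 3, and the remaining within-group pairs gave at most 5.67. In the marker counts that follow, higher and lower mean an adjusted p under 0.05 in edgeR's quasi-likelihood test. Of all tested genes, 19.2% were called higher and 20.8% lower. Of the 10 ES cell markers listed, 9 were lower in the libraries labelled KO, yet all remained detected (Pou5f1, which encodes OCT4, at 827 ± 124 and 498 ± 10.0 CPM, SD, n = 3 each). Of 20 primitive endoderm markers 19 were higher, with a summed level of 1400 to 1550 CPM in the expressing libraries, against 2750 to 2810 CPM in those labelled KO. Fibroblast markers numbered 9 higher and 1 lower of 21 (1780 to 2080 and 2130 to 2920 CPM summed), and markers of the 2-cell-like state 8 higher and 0 lower of 10 tested (28.1 to 33.6 and 68.3 to 75.9 CPM summed, 0 lower also by DESeq2 and at an unadjusted p under 0.05). Their part in the differences of the germline genes was not tested, and in such bulk samples fewer cells of a type and less RNA per cell cannot be told apart.

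Most of the germline genes were measurable in both groups. Of the 37, 32 had at least 1 CPM in all 6 libraries, 14 had at least 10 CPM in all 6, and Spo11, Tdrd9 and Asz1 were under 1 CPM in each library. Per kilobase of exon, the median of the 36 tested genes was 2.58 CPM over all libraries, against 3.16 CPM for all 17778 tested genes. The order of the levels per kilobase was led by Tex19.1 (47.6 ± 3.85 CPM per kilobase in the expressing libraries and 53.8 ± 1.57 in those labelled KO, SD, n = 3), whose product restrains retrotransposons. Next came Sycp3, a lateral element protein of the synaptonemal complex, at 41.4 ± 15.4 and 19.6 ± 1.08 CPM per kilobase, and Syce1, a central element protein, at 25.8 ± 1.17 and 29.2 ± 1.31. Mael, Ddx4 and Rnf17 followed at 18.5, 16.1 and 15.2 CPM per kilobase over all libraries. The 3 of them do not hold 1 order in both groups: Rnf17 led in the expressing libraries (19.0) and Mael in those labelled KO (21.9).

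Asz1 was the single gene too low to judge. It had 2, 2 and 3 counts in the expressing libraries, against 8, 2 and 10 in those labelled KO, which does not pass the filter on low counts. The lowest genes that could be tested were Spo11 with 120 counts in all and Tdrd9 with 161, and their 95% intervals reached beyond 2-fold without passing the test. None of the 36 tested genes had an interval wider than 2 log2 units. Of the 19 that were not called, 17 had intervals within 2-fold in either direction.

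The promoters of these genes are shown first, because 2 short sequences read by members of the repressive PRC1.6 complex occur in many of them: TCCCGC, a core recognised by E2F6 and its relatives, and the E-box CACGTG, bound by dimers of MAX with MGA or other partners. RefSeq promoters (GRCm38.p6) were matched by symbol for 30 of the 37 genes, and both strands of the 250 bases before each start were searched for exact matches. Where a gene has several starts, the highest count over them was used for each motif. The 5 promoters below are the 150 bases before the start of the most abundant gene (Tex19.1), of a highly expressed gene that fell (Sycp3) and of 3 genes that rose (Mael, Dmc1 and Slc25a31). They are printed 5′ to 3′ on the strand of the gene with matches in capitals; GCGGGA is TCCCGC on the other strand. They lie at chr11:121145993-121146142 (plus strand), chr10:88459437-88459586 (plus), chr1:166238745-166238894 (minus), chr15:79605110-79605259 (minus) and chr3:40708721-40708870 (plus), in that order.
Tex19.1: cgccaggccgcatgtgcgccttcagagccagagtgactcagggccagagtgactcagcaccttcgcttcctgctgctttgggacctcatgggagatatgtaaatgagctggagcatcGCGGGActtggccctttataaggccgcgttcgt
Sycp3: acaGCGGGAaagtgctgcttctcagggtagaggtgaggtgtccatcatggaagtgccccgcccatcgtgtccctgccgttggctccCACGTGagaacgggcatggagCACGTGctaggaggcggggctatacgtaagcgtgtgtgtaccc
Mael: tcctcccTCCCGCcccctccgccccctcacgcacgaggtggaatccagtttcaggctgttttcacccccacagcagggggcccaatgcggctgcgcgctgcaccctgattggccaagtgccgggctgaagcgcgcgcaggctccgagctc
Dmc1: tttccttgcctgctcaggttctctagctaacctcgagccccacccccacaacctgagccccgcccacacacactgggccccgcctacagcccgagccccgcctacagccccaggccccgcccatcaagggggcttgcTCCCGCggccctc
Slc25a31: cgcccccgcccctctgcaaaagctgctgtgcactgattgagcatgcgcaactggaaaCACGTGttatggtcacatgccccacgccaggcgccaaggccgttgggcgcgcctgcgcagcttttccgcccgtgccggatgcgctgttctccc

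The distances are to the RefSeq start, and the annotated starts of Sycp3, Slc25a31 and Mael used for gene positions below lie inside the printed stretches. The matches begin 33 bases before the start in Tex19.1, 147, 64 and 43 bases before it in Sycp3, 143 in Mael, 13 in Dmc1 and 93 in Slc25a31. TCCCGC was present for 10 of the 30 genes (33.3%), against 18.8% of all 27025 genes of that RefSeq table, and CACGTG for 11 (36.7%), against 6.86%. Ddx4, Sycp3, Hormad1 and Mael had both (13.3%, against 1.98% of all). The germline promoters also held more CpG dinucleotides, a median of 15.5 against 6 per 250 bases. Each motif itself contains a CpG, and the compared genes were not matched for CpG content or expression. Matches were found before genes of each outcome: 5 of the 7 that rose, 3 of the 5 that fell and 9 of the 17 not called had at least 1 of the motifs. Over all 30 genes 17 did (56.7%), against 23.7% of the 27025. A match is a description of the letters and no evidence of binding.

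As a set, the germline genes moved in both directions between the groups. At an adjusted p under 0.05 (edgeR's quasi-likelihood test with Benjamini-Hochberg adjustment), the libraries labelled KO had 10 of the 36 tested genes higher and 7 lower, and 19 did not pass. That is 27.8% higher, where 19.2% of all tested genes were called higher, and 19.4% lower, where 20.8% of all were called lower. The counts of this set are thus near those of the whole table. The median log2 fold change of the 36 was 0.17, against -0.01 for all genes. The groups did not overlap for 23 of them (63.9%, against a background of 53.5%). With libraries scaled by their totals alone, 14 were higher and 6 lower, while 25.1% of all tested genes were called higher and 14.5% lower and their median moved to 0.08. Without expressing replicate 1, 13 were higher and 9 lower, with 26.2% of all tested genes called higher and 24.7% lower. Changes were moderate: Tex11, Slc25a31, Prdm1 and Sycp3 changed by at least 2-fold, and the other 13 called genes by less.

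**Figure D1:**
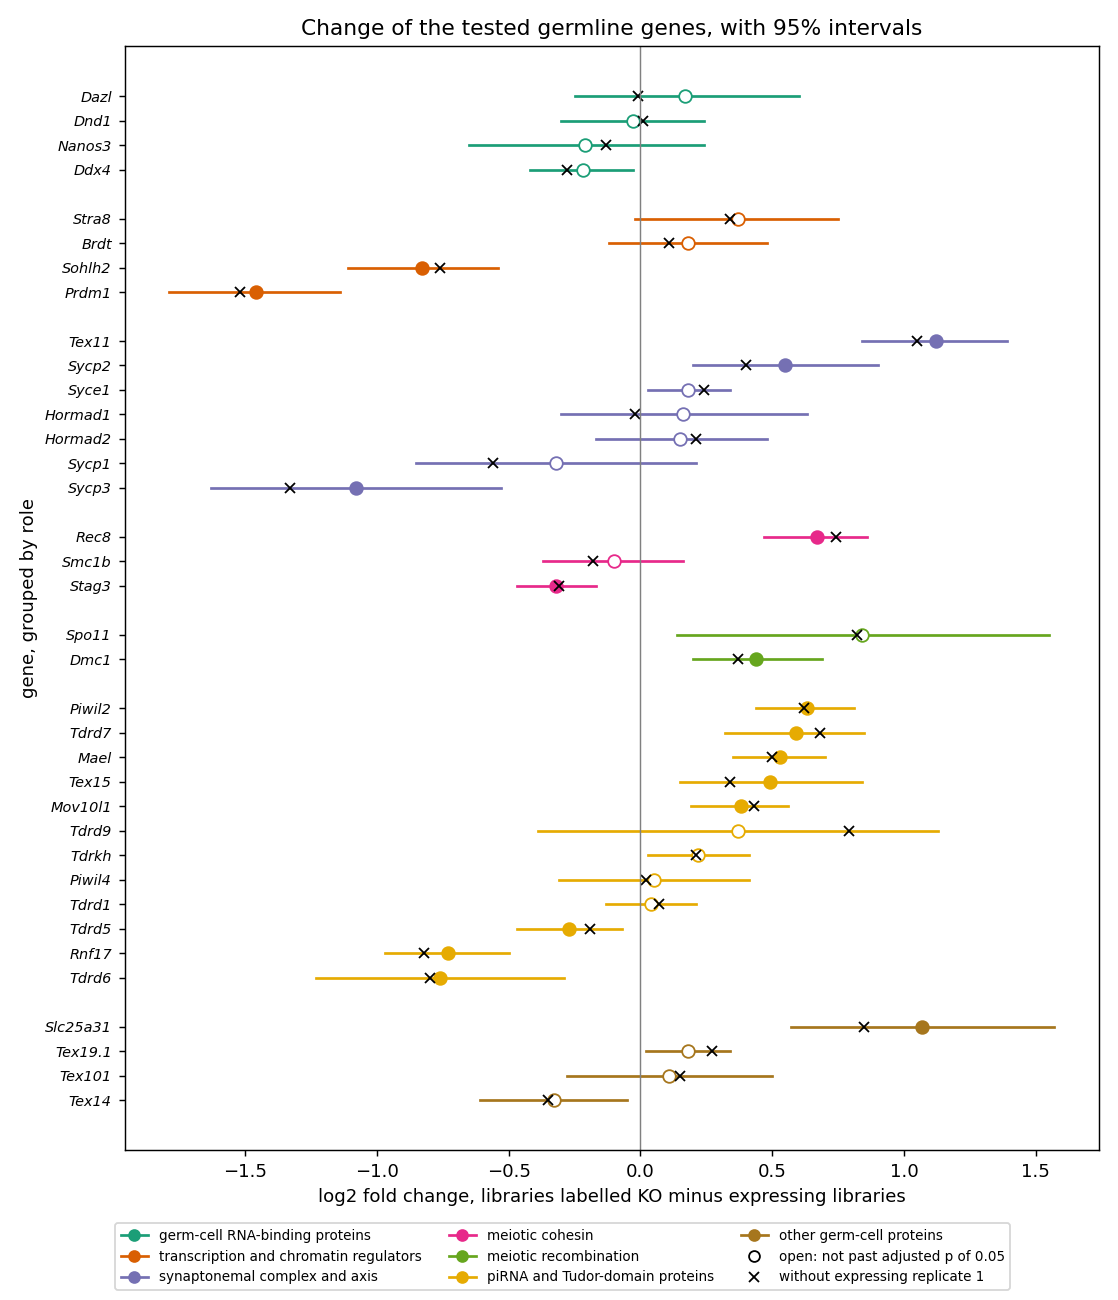
Log2 fold change (x axis, libraries labelled KO minus expressing libraries) of the 36 tested germline genes (y axis, grouped by role and coloured by it). Bars are 95% intervals, filled circles passed an adjusted p of 0.05, open circles did not, and crosses are the values without expressing replicate 1; changes run from -1.46 (Prdm1) to 1.12 (Tex11), and roles other than the RNA-binding proteins hold filled circles on one or both sides of 0.

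The germ-cell RNA-binding proteins, which control translation and RNA stability, gave 0 calls of 4 in edgeR and in DESeq2, and 0 of the 4 were higher while 1 (Ddx4) was lower at an unadjusted p under 0.05. Ddx4, the Vasa helicase that marks germ cells, stood at 45.9, 54.8 and 56.2 CPM in the expressing libraries and 42.5, 45.5 and 46.4 CPM in those labelled KO. The groups overlap only through the low value of expressing replicate 1. Its log2 fold change was -0.22 (SE 0.0865, adjusted p = 0.0669), and it passed without expressing replicate 1 (-0.28, adjusted p = 4.79e-05). Dazl, which encodes a translational activator needed for germ cell development, was at 6.79, 12.0 and 12.1 CPM against 10.7, 11.9 and 12.3 CPM, with a log2 fold change of 0.17 (SE 0.189) that was -0.01 without expressing replicate 1. Nanos3 (-0.21, SE 0.198) and Dnd1 (-0.03, SE 0.121), 2 further RNA regulators that protect primordial germ cells, were low, between 0.917 and 4.08 CPM in all libraries. Wdr55 shares 140 bases of exon with Dnd1 on the opposite strand. It was far more abundant, at 64.5 CPM in the expressing libraries and 48.8 CPM in those labelled KO, and fell (-0.4, SE 0.0795, adjusted p = 0.00348 in edgeR).

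Of the 4 transcription and chromatin regulators, Prdm1 and Sohlh2 fell. Prdm1 (ENSMUSG00000038151; chromosome 10, 44437177 to 44528501, mm10) encodes BLIMP1, a repressor that directs primordial germ cell specification and also acts in many somatic lineages. It had 7.88, 9.88 and 9.16 CPM in the expressing libraries, against 3.78, 3.37 and 2.71 CPM in those labelled KO. The groups were well apart, and the log2 fold change was -1.46 (SE 0.146, adjusted p = 7.2e-05). Sohlh2, a helix-loop-helix factor of spermatogonia and early oocytes, was at 6.69, 6.62 and 5.69 CPM against 3.29, 3.35 and 4.03 CPM. Its groups were apart by more than their spread, with a log2 fold change of -0.83 (SE 0.128, adjusted p = 0.000895). Stra8, the retinoic acid target that licenses meiotic entry, was at 2.27 to 2.87 and 2.52 to 3.62 CPM (0.37, SE 0.173, adjusted p = 0.121). Brdt, the testis bromodomain protein, was at 3.23 to 4.24 and 4.01 to 4.65 CPM (0.18, SE 0.134, adjusted p = 0.323), and the groups overlap for both.

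Genes of the synaptonemal complex and the meiotic axis diverged. Tex11 (ENSMUSG00000009670; chromosome X, 100838648 to 101059667, mm10), an X-linked gene needed for crossover formation, was the largest increase of the set. It had 5.64, 7.18 and 6.89 CPM in the expressing libraries and 14.6, 12.7 and 15.7 CPM in those labelled KO. The groups were far apart, and the log2 fold change was 1.12 (SE 0.122, adjusted p = 0.000121). Sycp3 (ENSMUSG00000020059; chromosome 10, 88459569 to 88473236, mm10) had 29.9, 61.6 and 65.4 CPM in the expressing libraries, against 23.4, 24.8 and 26.1 CPM in those labelled KO. Expressing replicate 1 lay close to the libraries labelled KO, and the other expressing libraries far above them. The log2 fold change was -1.08 (SE 0.242, adjusted p = 0.00693); it was -1.33 without expressing replicate 1, and it no longer passed when expressing replicate 2 was left out (adjusted p = 0.0721) or with no filter on low counts (0.137). Chpt1 shares 660 bases of exon with Sycp3 on the opposite strand and did not pass (0.09, SE 0.132, adjusted p = 0.629).

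Values for the other synaptonemal complex and axis genes lay on both sides of 0. Sycp2, the other lateral element protein, was at 9.45, 14.2 and 14.8 CPM against 20.9, 17.9 and 17.7 CPM. It rose by 0.55 (SE 0.155, adjusted p = 0.0188), again with expressing replicate 1 lowest, and the call was lost without KO replicate 1 (0.0787). Sycp1, the transverse filament that zips the axes together, was at 5.60, 11.7 and 12.3 CPM against 8.08, 8.05 and 7.82 CPM. The libraries labelled KO fell between expressing replicate 1 and the other expressing libraries, so the log2 fold change of -0.32 (SE 0.237, adjusted p = 0.312) did not pass, and it passed without expressing replicate 1 (-0.56, adjusted p = 6.65e-06) and with the GC trend removed (-0.34, adjusted p = 0.0112). Syce1 was at 39.1, 38.1 and 35.8 CPM against 41.8, 41.4 and 44.9 CPM; the groups do not overlap, but the difference was small (0.18, SE 0.0693, adjusted p = 0.0624). Hormad1 (0.16, SE 0.208) and Hormad2 (0.15, SE 0.145), which encode axis proteins that monitor synapsis, did not pass.

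**Figure D2:**
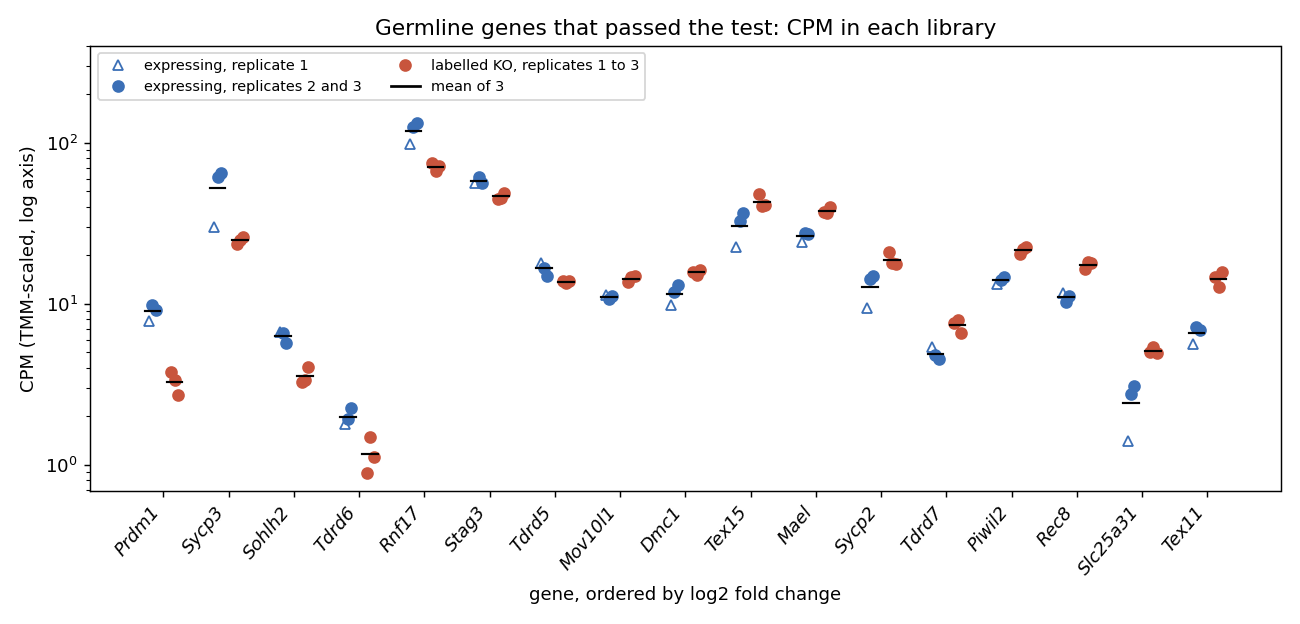
CPM (y axis, log scale) in each library for the 17 germline genes that passed the test (x axis, ordered by log2 fold change), with blue for expressing libraries, red for libraries labelled KO, an open triangle for expressing replicate 1 and black lines for the means of 3. The groups do not overlap for any of the 17, and the triangle sits well below its group for Sycp3 (29.9 against 61.6 and 65.4 CPM), Slc25a31, Sycp2 and Tex15.

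Meiotic cohesin subunits went opposite ways. Rec8, the kleisin that replaces RAD21 in meiotic cohesin, had 11.7, 10.3 and 11.2 CPM in the expressing libraries and 16.4, 18.1 and 18.0 CPM in those labelled KO. It rose by 0.67 (SE 0.0884, adjusted p = 0.000372). Stag3, the meiosis-specific STAG subunit, had 56.5, 61.4 and 56.1 CPM against 45.1, 45.6 and 48.7 CPM. It fell in every library labelled KO, but by little (-0.32, SE 0.0675, adjusted p = 0.00478). Smc1b, the meiotic SMC subunit, overlapped between groups (6.24 to 8.21 and 6.47 to 7.16 CPM; -0.10, SE 0.119, adjusted p = 0.517).

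Of the 2 recombination genes, Dmc1, the meiotic strand-exchange recombinase, had 9.83, 11.8 and 13.1 CPM against 15.8, 15.2 and 16.2 CPM and rose by 0.44 (SE 0.109, adjusted p = 0.0101). Spo11, which makes the DNA breaks that start recombination, had 10, 16 and 13 counts against 30, 27 and 24. In CPM that is 0.320, 0.363 and 0.356 against 0.859, 0.598 and 0.465, so the groups do not overlap, but the log2 fold change of 0.84 (SE 0.313, 95% interval 0.14 to 1.55) did not pass (adjusted p = 0.0568).

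Among the piRNA and Tudor-domain genes, 5 of 12 tested rose and 3 fell (41.7% and 25.0%, beside 19.2% and 20.8% of all tested genes). Piwil2, which encodes the PIWI protein MILI that slices transposon transcripts, had 13.2, 14.1 and 14.7 CPM in the expressing libraries and 20.3, 22.0 and 22.5 CPM in those labelled KO. It rose by 0.63 (SE 0.0825, adjusted p = 0.000352). Mov10l1, the helicase that feeds piRNA precursors into the pathway, had 11.4, 10.7 and 11.2 CPM against 13.6, 14.6 and 14.8 CPM and rose by 0.38 (SE 0.0830, adjusted p = 0.00599). Mael, the gene of the germ granule protein Maelstrom, was among the most abundant of the set. It had 24.2, 27.4 and 27.3 CPM against 37.4, 36.5 and 39.8 CPM and rose by 0.53 (SE 0.0769, adjusted p = 0.000638). Tex15, whose product links piRNAs to DNA methylation of transposons, had 22.5, 32.6 and 36.7 CPM against 47.9, 40.5 and 41.3 CPM. Its call (0.49, SE 0.155, adjusted p = 0.0304) was the least firm of these increases: it did not pass when expressing replicate 2 (0.0659) or KO replicate 1 (0.114), 2 (0.0579) or 3 (0.0671) was left out.

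Tudor-domain proteins dock on PIWI proteins through methylated arginines and build the germ granules. Tdrd7 had 5.41, 4.78 and 4.54 CPM in the expressing libraries and 7.59, 7.93 and 6.60 CPM in those labelled KO, a rise of 0.59 (SE 0.119, adjusted p = 0.0038). Rnf17 (ENSMUSG00000000365; chromosome 14, 56402581 to 56525032, mm10), a RING and Tudor protein of spermatids, had 98.6, 125 and 132 CPM against 74.6, 67.0 and 72.0 CPM. It had the most CPM of the set in the expressing libraries and fell by 0.73 on the log2 scale (SE 0.103, adjusted p = 0.000501), the groups being well apart. Tdrd6, a scaffold of the chromatoid body, was low, at 1.79, 1.93 and 2.27 CPM against 0.888, 1.49 and 1.12 CPM. Its decrease (-0.76, SE 0.210, adjusted p = 0.0172) did not pass when expressing replicate 3 (0.072), KO replicate 1 (0.0558) or KO replicate 3 (0.0656) was left out. Tdrd5 had 17.9, 16.8 and 15 CPM against 13.8, 13.4 and 13.9 CPM, a small decrease (-0.27, SE 0.0891, adjusted p = 0.0353) that was lost in 5 of the 6 fits with 1 library left out (without expressing replicate 1 at 0.0514, expressing replicate 2 at 0.0734, and KO replicates 1 to 3 at 0.0925, 0.118 and 0.0986) and with library totals (0.176).

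The remaining piRNA genes did not pass. Tdrd1, the scaffold that binds MILI, was at 14.3 to 14.7 and 14.5 to 15.3 CPM (0.04, SE 0.0758, 95% interval -0.13 to 0.21). Tdrkh, which tethers PIWI proteins to mitochondria, was at 18.5 to 20.5 and 21.3 to 24.9 CPM (0.22, SE 0.0848, adjusted p = 0.0649). Oaz3 covers 2255 bases of its exons on the opposite strand, but Oaz3 itself was counted at only 0.0182 and 0.0234 CPM. Piwil4, the nuclear PIWI protein MIWI2, was at 1.47 to 1.81 and 1.6 to 1.82 CPM (0.05, SE 0.161). Tdrd9, a piRNA pathway helicase, had 28, 18 and 17 counts against 20, 42 and 36 (0.37, SE 0.339).

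The last role holds proteins of other germ-cell structures. Slc25a31 (ENSMUSG00000069041; chromosome 3, 40708855 to 40726096, mm10), the ADP/ATP carrier of male germ cells, had 1.41, 2.74 and 3.09 CPM in the expressing libraries and 5.01, 5.43 and 4.94 CPM in those labelled KO. Even the highest expressing library was below all libraries labelled KO, and the log2 fold change was 1.07 (SE 0.223, adjusted p = 0.0045); it was 0.85 without expressing replicate 1, the lowest library. Tex19.1 was at 97.4, 85.2 and 84.6 CPM against 103, 97.4 and 102 CPM. The groups nearly touch, and the difference of 0.18 (SE 0.0700, adjusted p = 0.0683) passed only in some fits, among them the fit without expressing replicate 1 (0.27, adjusted p = 3.06e-06). Its paralogue Tex19.2, with which reads may be shared, was at 1.15 and 0.934 CPM. Tex14, needed for the bridges between germ cells (-0.33, SE 0.126, adjusted p = 0.0615), and Tex101, a sperm surface protein gene (0.11, SE 0.175), did not pass.

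The distance of expressing replicate 1 from its group differed between these genes and moved with the GC content of their transcripts. Against the mean of the other expressing libraries, its log2 difference was -1.09 for Sycp1, -1.08 for Sycp3, -0.82 for Dazl, -0.81 for Hormad1, -0.62 for Tex15, -0.61 for Sycp2 and -0.32 for Tex11, the 7 genes with the least GC (35.6% to 39.6%). Slc25a31 (41.1% GC) was at -1.0 and the sparsely counted Tdrd9 (51.2% GC) at 0.90. For genes at the upper end, Rec8 (56.6% GC), Nanos3 and Dnd1, it was 0.13, 0.16 and 0.05. Across the 36 genes, which share each library and are not independent, this difference had r = 0.791 with GC content (r = 0.585 over 17762 tested genes). The same r for KO replicate 1 was -0.343, and for KO replicates 2 and 3 it was 0.526 and -0.105. Over the 17762 tested genes, KO replicates 1 to 3 had r = 0.00671, 0.0957 and -0.113. Expressing replicates 2 and 3, whose comparison includes expressing replicate 1, had -0.776 and -0.661 (-0.478 and -0.302 over the 17762). Expressing replicate 1 was the lowest of its group for 22 of the 36 genes and the highest for 10. This was not counted over all tested genes, so it cannot be called particular to the germline genes. With the GC trend removed from each library, 13 were higher and 10 lower, and of all tested genes 25.4% were called higher and 28.0% lower, so calls rose over the whole table too. Ddx4 (adjusted p = 0.000289), Sycp1 (0.0112) and Tex14 (0.0055) then passed as lower, and Syce1 (0.00897), Tdrkh (0.0444) and Tex19.1 (0.00106) as higher.

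**Figure D3:**
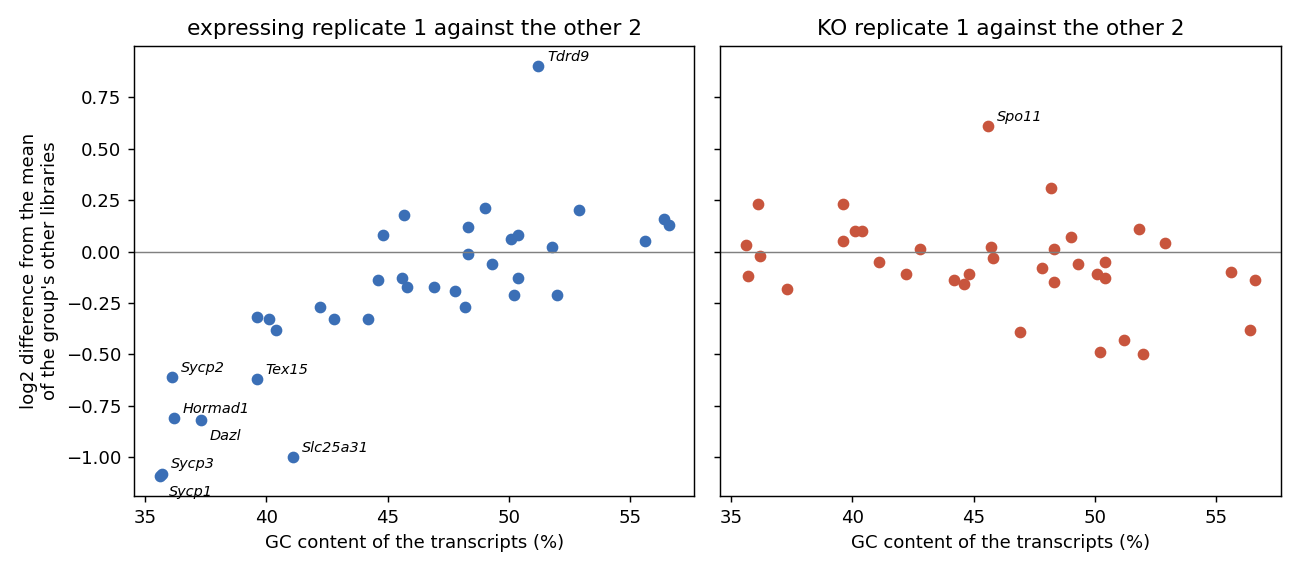
Log2 difference of 1 library from the mean of the other 2 of its group (y axis) against the GC content of each gene's transcripts in percent (x axis), for the 36 tested germline genes. Expressing replicate 1 (left) falls to -1.09 at the GC-poor end, where Sycp1 and Sycp3 lie, and KO replicate 1 (right) is at 0.03 for Sycp1.

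Several of these genes have a somatic counterpart, a relative in the same protein family, which gives their levels a scale. Such relatives need not do the same work. In CPM per kilobase, Rec8 was at 2.71% to 3.66% of Rad21 in the expressing libraries and at 5.28% to 5.82% in those labelled KO, and Smc1b at 2.21% to 3.07% and 3.55% to 3.78% of Smc1a. Rad21 did not pass (-0.19, SE 0.0731, adjusted p = 0.0648) and Smc1a fell (-0.54, SE 0.0538, adjusted p = 7.23e-05), so the share of Smc1b differed while Smc1b itself did not pass. Stag3 was at 61.5% to 74.4% and 49.4% to 52.7% of Stag1, and at 18.5% to 26.7% and 17.5% to 19.2% of Stag2, where the ranges overlap. Mov10l1 went from 24.4% to 28% of Mov10 in the expressing libraries to 59.9% to 63.6% in those labelled KO; Mov10 fell (-0.86, SE 0.0871, adjusted p = 7.83e-05) as Mov10l1 rose. Slc25a31 was at 0.466% to 1.05% and 2.86% to 3.11% of Slc25a5, the carrier of dividing cells, which fell as well (-0.78, SE 0.0514, adjusted p = 7.35e-06). Brdt was at 3.05% to 3.79% and 3.60% to 3.86% of Brd3.

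**Figure D4:**
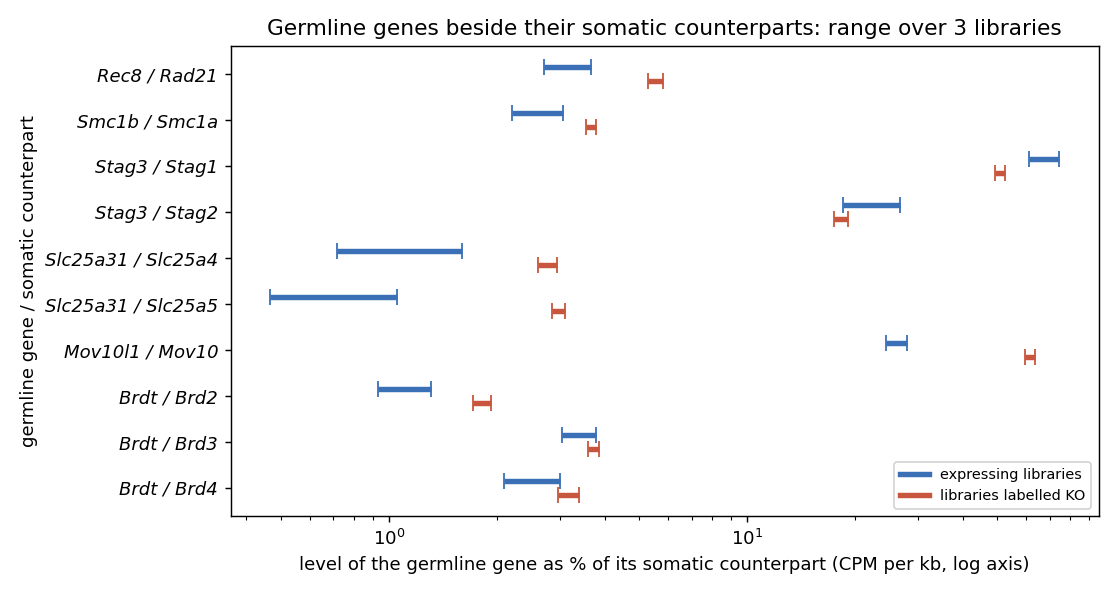
Level of each germline gene as a percentage of its somatic counterpart (x axis, CPM per kilobase of exon, log scale) for 10 pairs (y axis). Bars span the lowest to highest of 3 libraries, blue for expressing and red for labelled KO; the ranges are apart for Rec8, Smc1b, Slc25a31, Mov10l1 and Brdt beside Brd2, all higher in the libraries labelled KO, and for Stag3 beside Stag1, which is lower (49.4% to 52.7% against 61.5% to 74.4%).

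Other genes of the same pathways, listed beside the 37, also moved both ways. Of 66 names 64 were in the table and 56 could be tested; 11 rose and 14 fell (19.6% and 25.0%, beside 19.2% and 20.8% of all tested genes), with a median log2 fold change of -0.05. The 4 with the smallest p all fell. Ccnb1ip1, a ubiquitin ligase gene of crossover formation, fell from 49.6 ± 7.08 to 11.3 ± 0.737 CPM (SD, n = 3; -2.14, SE 0.113), though it shares 233 bases of exon with Rpph1 on the same strand. Syce2, which builds the central element with SYCE1, fell from 54.4 ± 1.26 to 29.8 ± 1.09 CPM (-0.87, SE 0.0644), whereas Syce1 did not pass. Hsf2bp, a recombination factor, fell by 1.07 (SE 0.0846) and Tdrd12, a piRNA pathway helicase, by 1.1 (SE 0.0909). Tex13b, named after its value was seen, was the largest increase, from 0.506 ± 0.155 to 2.56 ± 0.395 CPM (2.33, SE 0.243).

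Of 9 genes listed under primordial germ cell specification, 5 fell and 1 rose (55.6% and 11.1%, beside 20.8% and 19.2% of all tested genes). Prdm14 fell from 11 ± 0.606 to 1.83 ± 0.201 CPM (SD, n = 3; -2.58, SE 0.120) and Tfap2c from 19.2 ± 1.07 to 7.92 ± 0.853 CPM (-1.27, SE 0.101); both also act in pluripotent cells. Ifitm1 (-1.37, SE 0.0721), T (-1.19, SE 0.0957) and Kit (-0.81, SE 0.0769) fell, Nanos1 rose (0.45, SE 0.108), and Dppa3, a maternal and germ cell factor (-0.29, SE 0.110), Ifitm3 (0.14, SE 0.0714) and Lin28a (0.01, SE 0.0564) did not pass. Nanos1 is also counted among the other pathway genes that rose. Most late markers were too low to test. Of 13 post-meiotic sperm markers 4 could be tested, and Prm1, Prm2, Tnp1 and Akap4, which define spermatids, had 0 counts in all 6 libraries, which allows up to 0.0581 to 0.0961 CPM in a library. Ldhc and Izumo1 were the 2 called, both lower and both under 1 CPM in all libraries. Of 9 oocyte markers 2 could be tested, and they went opposite ways. Zp3, a zona pellucida gene, fell from 3.70 ± 0.186 to 2.42 ± 0.378 CPM (-0.61, SE 0.147). The other had a log2 fold change of 0.87, which did not pass after adjustment but had an unadjusted p under 0.05 in edgeR.

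Genes of PRC1.6, associated silencing factors and DNA methylation also differed between the groups. Of 21 genes of PRC1.6 and associated silencing factors 13 fell and 2 rose (61.9% and 9.52%, beside 20.8% and 19.2% of all tested genes), with a median of -0.24. E2f6, named with Yaf2 (0.32) as the 2 that rose, went from 61.5 ± 2.57 to 79.9 ± 4.25 CPM (SD, n = 3; 0.38, SE 0.0658). Trim28, a corepressor of transposons, fell from 1859 ± 189 to 901 ± 16.4 CPM (-1.05, SE 0.0726), and Zfp42 (-1.37, SE 0.0584), Ehmt1 (-0.42, SE 0.0543) and Kdm5c (-0.50, SE 0.0670) fell too. Zfp42 is also among the ES cell markers listed. These genes that fell are not among the PRC1.6 members named at the start, of which only E2f6 is given here. The counts therefore describe the whole list and not the complex itself. Of 9 DNA methylation genes, which include TET genes that act to remove the mark, 5 fell and 1 rose (55.6% and 11.1%, beside the same shares of all genes). Dnmt3b (-1.07, SE 0.0555), Dnmt3a (-0.69, SE 0.0639), Tet2 (-0.62, SE 0.0826), Tet1 (-0.37, SE 0.0778) and Uhrf1 (-0.44, SE 0.0818) fell, and Dnmt3l rose (0.55, SE 0.0762). Whether any of these bears on the germline genes was not tested.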

How the data were processed

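The authors deposited whole-number read counts per Ensembl gene, not normalized. The tools named in the submitters' processing notes are STAR 2.5.3a, HTSeq 0.6.1p1, bcl2fastq 2.20.0.422 and cutadapt 1.10, with build mm10. The sources used here give neither their settings, nor the strand option, nor the annotation release. The libraries were stranded and poly(A)-selected (800 ng RNA, 12 PCR cycles), per the labels' protocols. The replicates are separate dishes, so p-values measure the spread between dishes.

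Symbols, exon lengths and overlaps came from GENCODE M21 (same build), which named 55141 of 55401 identifiers. Of the 37 genes, 5 overlap an exon on the opposite strand (Dnd1, Sycp3, Tdrd5, Tdrkh and Piwil4) and 0 on the same strand. The test was edgeR 4.0.16 (R 4.3.3): filterByExpr (minimum count 10, minimum total 15; 17778 genes kept), TMM, glmQLFit (robust) and glmQLFTest, group as the only term, Benjamini-Hochberg adjustment over all tested genes at 0.05. SE and 95% intervals follow from the test statistic, and floors cover counting error only, since PCR copies are not told apart. Library deviations used log2(CPM + 0.1). DESeq2 1.42.0 was an alternative, and the fit was tested on simulated data. The simulation had far fewer changed genes than were called here and no GC trend in any library, so it does not cover those features. The genes and lists were chosen with earlier results of these data known. Per-library values are given for called genes and the 5 highest per kilobase, and at most 4 called genes of smallest p per other list, beside those that complete a count of 5 or fewer.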

Additional observations from a re-analysis of the deposited data

How the results depend on the processing

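Of the 17 called germline genes, 12 kept their call under all 14 alternatives, and Sycp2, Sycp3, Tdrd5, Tdrd6 and Tex15 lost it under at least 1, as given beside each; none of the 17 changed direction. A further 8 genes passed under at least 1 alternative. Leaving out 1 library gave 9 to 13 germline genes higher and 5 to 9 lower, 7 (without KO replicate 3) to 12 of the other pathway genes higher and 11 to 19 lower, and 2541 to 4852 of all genes higher and 2628 to 4589 lower. Counts of 10 higher and 7 lower were also obtained with DESeq2 and with DESeq2 size factors. The replicate block gave 10 and 7 too; same-numbered libraries correlated at 0.0236, -0.0342 and 0.0419 (deviations from group means) and did not each correlate best with their own number, so they share only a number. The block lost the call of Tdrd5 (adjusted p = 0.056) and added Tex14 (0.0356), and with the GC trend removed as well it gave 13 and 10. Depth limits Asz1, Spo11 and Tdrd9, which have under 200 counts each.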
